A study of Mus musculus with 2 samples.

Results

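Wide footprints are the long protected stretches of open chromatin in the mouse frontal cortex: footprint intervals of 30 bp or more that overlapped, by at least 1 bp, a footprint of the other library, merged over both libraries. There were 13397 of them among 303341 merged footprints, 9885 coming from replicate 1 and 9490 from replicate 2. The members were chosen by their width and by being shared, so both are descriptions of the choice and not findings. The data are DNase-seq, in which an enzyme cuts accessible DNA and the cut sites are sequenced. The study has 1 group of 2 libraries, both from frontal cortex of female B6CASTF1/J mice, the first-generation cross of C57BL/6J and CAST/EiJ, at 25 days of age. The labels give each library its own biosample and biological replicate number under 1 donor identifier, so the spread between them may be partly technical. The labels name no sorting of cells, so all cell types of the tissue contribute, and protection in few cells cannot be told apart from weak protection in many. The promoters of 6 of 6 neuronal genes (Syt1, Snap25, Map2, Rbfox3, Slc17a7 and Gad1) lay in a called region in both libraries, and those of 6 of 6 genes of other organs (Alb, Apoa1, Myh6, Cd3e, Prm1 and Hbb-bs) in a called region of neither.

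A protein bound to DNA shields its bases from the enzyme, which leaves a footprint inside an open region. Most single factors shield a short stretch, whereas CTCF, a protein with many zinc fingers that sets the boundaries of chromatin loops together with cohesin, reads a long one: its central fingers bind a core consensus, and further fingers can contact an element upstream of it. Promoters active in nearly all cells, neurons included, are bound by general factors such as SP/KLF, NFY, NRF1, CREB and ETS proteins. RNA polymerase III genes, such as those for tRNAs, carry large protein assemblies on and before the transcribed part.

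The sequences below are those of the reference genome (GRCm38, the same build as mm10), not the alleles of the cross. The first 4 are members of 30 to 34 bp with a single CTCF consensus and an upstream edge 4 to 9 bp before it, from the strongest by region value among those wide in both libraries and unique in the genome, shown 5′ to 3′ on the strand of the consensus with the consensus in capitals. They show a footprint that ends a few bases before the core.
Nuak1 intron, chr10:84438192-84438222 (minus strand): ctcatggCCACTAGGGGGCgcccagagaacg
Pick1 promoter, chr15:79243366-79243399 (plus strand): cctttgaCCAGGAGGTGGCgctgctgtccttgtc
Rcc2 promoter, chr4:140714016-140714047 (minus strand): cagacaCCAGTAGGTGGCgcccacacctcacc
Ndufv1 promoter, chr19:4012915-4012944 (minus strand): tgggatCCAGCAGAGGGCgacacgtgagcc

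The next 5 are the strongest members, chosen in the same way, that were at most 49 bp wide, reached 18 to 26 bp upstream of the consensus and held all 7 fixed letters of an upstream element, TGCANTNCC, which is the first stretch in capitals. They show a CTCF footprint that also covers the upstream element.
intergenic, nearest TSS Kdm8, chr7:125393823-125393870 (minus strand): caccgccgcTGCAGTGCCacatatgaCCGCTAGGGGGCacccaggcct
intergenic, nearest TSS Slc25a25, chr2:32487287-32487331 (minus strand): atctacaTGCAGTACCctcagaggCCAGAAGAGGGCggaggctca
intergenic, nearest TSS Ptma, chr1:86501760-86501807 (plus strand): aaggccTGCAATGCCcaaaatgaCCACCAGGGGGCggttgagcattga
intergenic, nearest TSS Prok2, chr6:99804407-99804453 (plus strand): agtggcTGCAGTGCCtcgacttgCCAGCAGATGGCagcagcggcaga
Atrn intron, chr2:130950743-130950786 (minus strand): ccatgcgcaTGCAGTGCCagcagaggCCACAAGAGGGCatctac

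Members without the CTCF consensus held motifs of other factors. The following come from the 2 holders of each motif with the highest region values or, for NFY, from the strongest promoter members. They are shown on the strand of the motif named, which is in capitals. Unlike the CTCF examples, they were not limited to members wide in both libraries. The one at Mxi1 was 40 bp wide in replicate 2 and in pieces of 12 and 23 bp in replicate 1. It also held an NFY match, left in lower case. The NFY member at Bahcc1 was 39 bp wide in replicate 1 and in pieces of 19 and 18 bp in replicate 2.
Snrnp70 promoter, NRF1, chr7:45395779-45395813 (plus strand): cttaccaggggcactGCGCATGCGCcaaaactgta
Mxi1 intron, CRE, chr19:53314305-53314344 (plus strand): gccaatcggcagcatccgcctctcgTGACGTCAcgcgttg
Bahcc1 promoter, NFI, chr11:120232771-120232800 (plus strand): gcagctccCTGGCCCGGCGCCAGcctattg
Bahcc1 promoter, NFY, chr11:120232841-120232879 (plus strand): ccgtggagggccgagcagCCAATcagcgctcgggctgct
Syt5 promoter, RFX, chr7:4546693-4546732 (plus strand): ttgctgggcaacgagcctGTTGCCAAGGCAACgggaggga
Jarid2 promoter, ZNF143, chr13:44730713-44730756 (minus strand): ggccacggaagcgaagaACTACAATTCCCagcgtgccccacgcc
Xkr6 intron, REST, chr14:63681741-63681777 (plus strand): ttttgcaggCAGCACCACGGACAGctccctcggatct

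Members had a median width of 35 bp, with quartiles of 32 and 42 bp and a maximum of 99 bp. Wide intervals made up 4.76% of the footprints of replicate 1 and 5.06% of those of replicate 2, and 96.9% and 98.7% of them were shared. By width, 5983 members were 30 to 34 bp, 2805 were 35 to 39 bp, 1855 were 40 to 43 bp, 2287 were 44 to 49 bp, 425 were 50 to 59 bp and 42 were 60 bp or more. In replicate 1 the counts did not fall with width between 40 and 46 bp, with 307 shared footprints of 40 bp and 336 of 46 bp. In replicate 2 they fell slowly there, with 409 and 276. At the threshold, replicate 1 held 1471 footprints of 30 bp and 1593 of 29 bp, of which 94.2% and 95.6% were shared. Replicate 2 held 1097 of 30 bp and 1289 of 29 bp, shared in 96.5% and 96.6%.

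**Figure D1:**
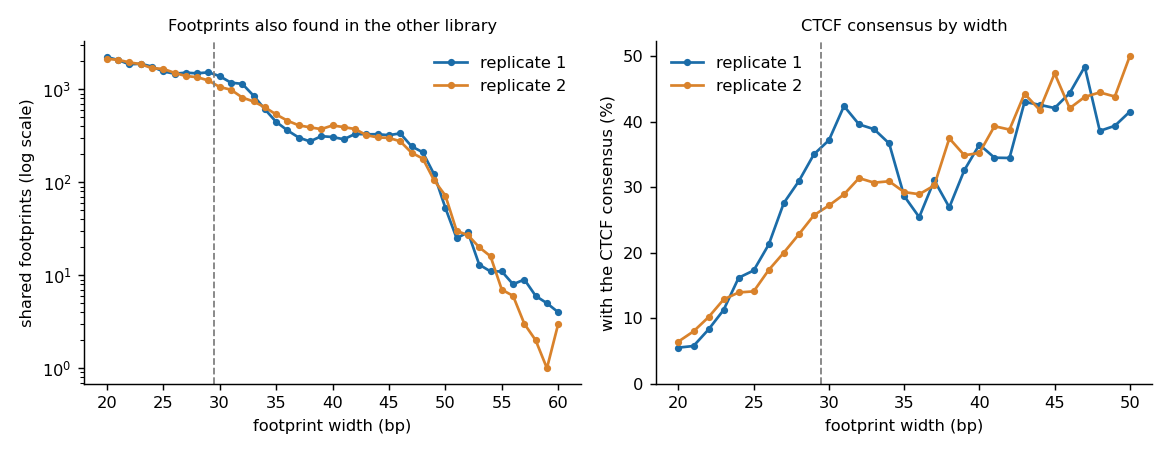
Left, shared footprints of each width from 20 to 60 bp in each library (log scale). Right, share of those of 20 to 50 bp that hold the CTCF consensus. The dashed line marks the minimum of 30 bp, and beyond it the counts level off near 40 bp before they drop above 46 bp.

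Width itself repeated only in part. Of the members, 5977, or 44.6% (exact Clopper-Pearson 95% interval 43.8 to 45.5%, which covers counting over regions only), were wide in both libraries. A further 29.2% were wide in replicate 1 only and 26.2% in replicate 2 only. Where 1 library was below the minimum, its widest overlapping footprint had a median of 23 bp, and in 41.1% of these members it was split into 2 or more pieces. Where both were wide, the widths differed by a median of 3 bp and by at most 2 bp in 49.9%.

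Nearly all members lay in open regions called in both libraries: 96.7% did, against 87.6% of the 73280 shared narrow footprints, which had a median width of 17 bp. These were under the minimum in each library, and 4.38% reached 30 bp only when merged. Members sat in the stronger regions. The median region value, the authors' read-depth-normalised signal, was 1.84 in replicate 1 and 1.76 in replicate 2 for regions with a member, against 0.887 and 0.994 for regions whose shared footprints were all narrow. Region value thus moved with membership, and its part in the comparisons with narrow footprints was not tested. The X chromosome held 244 members. On the Y chromosome, which a female genome lacks, there were 0 members, but 11 shared narrow footprints were listed there.

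Their places differed from those of narrow footprints. Of the members, 36.4% were at a promoter, within 1 kb of the transcription start site (TSS) of any protein-coding transcript, against 51.8% of shared narrow footprints. The lower share did not hold for all members. Promoters held 16.1% of members with the CTCF consensus at up to 1 mismatch and 66.6% of those without it. Narrow footprints were not split in this way. Introns held 26.6% against 22.0%, intergenic sequence 32.3% against 21.9%, and exons 4.61% against 4.34%. Per library, the promoter share averaged 34.5 ± 4.22% in wide and 51.02 ± 0.978% in narrow shared footprints (SD, n = 2), and both libraries had the lower share in wide ones. With 2 libraries the sign of each gives a two-sided exact p of 0.5 at the smallest, so these differences carry no test over samples. Median GC content was 61.3% in members and 68% in narrow footprints, and its part in these shares was not tested.

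CTCF was the leading motif. Its core consensus lay inside 4467 members, or 33.3% (95% interval 32.5 to 34.1%), against 3.86% of shared narrow footprints in their own, shorter sequence. Windows of 35 bp centred on narrow footprints, the members' median width, held it in 4.80%. Windows of each member's own width, placed 1 width away on either side and lying wholly inside open regions, held it in 0.313% of 12135. Those overlapping another member were left out, which can lower this share. With 1 mismatch allowed at the fixed letters, the shares were 59.7% of members, 13.4% of windows on narrow footprints and 3.77% of windows beside members. Per library, the exact consensus was in 35.5 ± 2.56% of wide and 3.56 ± 0.303% of narrow shared footprints (SD, n = 2). Members wide in both libraries held it in 40.6%, and members narrow in the other library in 27.5%.

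**Figure D2:**
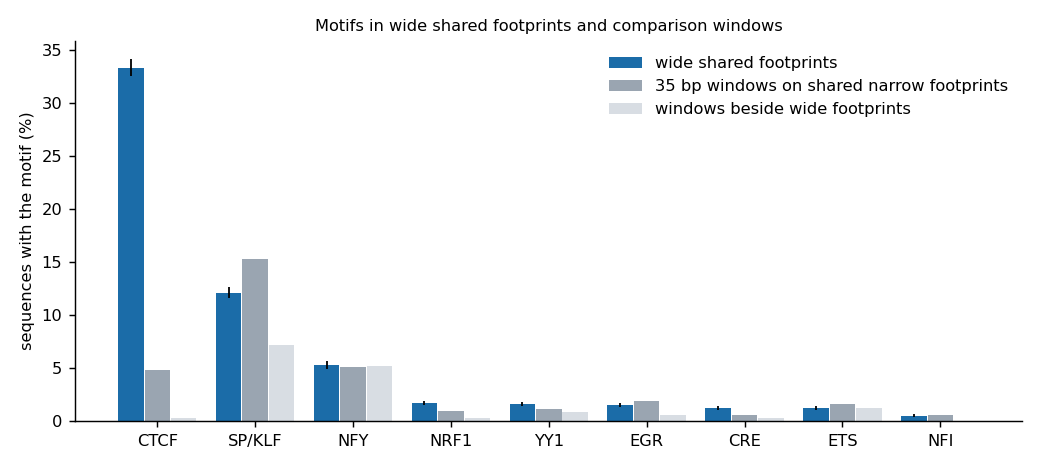
Share of sequences with each motif on either strand, in wide shared footprints (bars with 95% exact intervals), in 35 bp windows centred on shared narrow footprints and in windows of the members' own widths beside them. CTCF stands at 33.3% against 4.80% and 0.313%, and no other motif shown reached 16% in any set.

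Members with and without this motif lay in different places. Those with the exact consensus were mostly distal: 12.6% were at promoters, 37.4% in introns and 44.3% intergenic. Their median GC content was 59.4%, and their median region values were 1.62 in replicate 1 and 1.51 in replicate 2. The 5396 members without it, even at 1 mismatch, were at promoters in 66.6%, had a median GC content of 66.7% and lay in regions with median values of 3.09 and 3.28. Wide calls in both libraries were made for 54.4% of the members with the exact consensus and for 32.9% of those without.

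Among the 10 strongest distal members with the consensus, an intergenic pair on chromosome 8 led with region values of 12.1 and 13.35 at chr8:20122176-20122220 and 8.38 and 9.43 at chr8:19784531-19784580, in replicates 1 and 2. The central 36 bp of each occur 4 times in the genome, so reads there may belong to other copies. Positions relative to a TSS are given with a minus sign upstream. The strongest in unique sequence lay at -37935 bp from a TSS of Nanog, a pluripotency factor gene, at chr6:122669536-122669572, with region values of 6.73 and 7.81 and widths of 35 bp in both libraries. Others lay upstream of Ptma and Chd2, in introns of Nuak1, Camta1 and Txnrd2, and in an intron of Tmem189 at -3591 bp from a TSS of Cebpb. An intronic member of Diaph1 was 29 bp wide in replicate 1 and 30 bp in replicate 2.

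The share with the consensus depended on width. It was 30.5% at 30 to 34 bp, 29.9% at 35 to 39 bp, 36.3% at 40 to 43 bp, 43.5% at 44 to 49 bp and 31.1% at 50 to 59 bp. None of the 42 members of 60 bp or more held it exactly. The promoter share was 39.1%, 43.5%, 33.5%, 23.6% and 31.8% in the same 5 width classes and 52.4% in the widest. The share with the CTCF consensus made no step at the minimum of 30 bp. Among shared footprints of replicate 1 it was 5.52% at 20 bp, 17.3% at 25 bp, 34.997% at 29 bp and 37.2% at 30 bp. In replicate 2 it was 6.45%, 14.1%, 25.7% and 27.2% at these widths.

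In members with 1 consensus match, the distance of the edges from it depended on width. In those of 30 to 34 bp, the upstream edge was a median of 6 bp before the 12 bp consensus and the downstream edge 14 bp after it (n = 1824). In those of 44 to 49 bp, the upstream edge was 23 bp before it and the downstream edge 12 bp after it (n = 995). The 2 distances and the consensus add up to the width, so a wider member had to extend on at least 1 side; the added length lay upstream. Both libraries showed this separately. In replicate 1 the upstream medians were 6 and 22 bp and the downstream medians 14 and 12 bp for the shorter and longer classes, and in replicate 2 they were 7 and 23 bp upstream and 12 and 11 bp downstream.

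**Figure D3:**
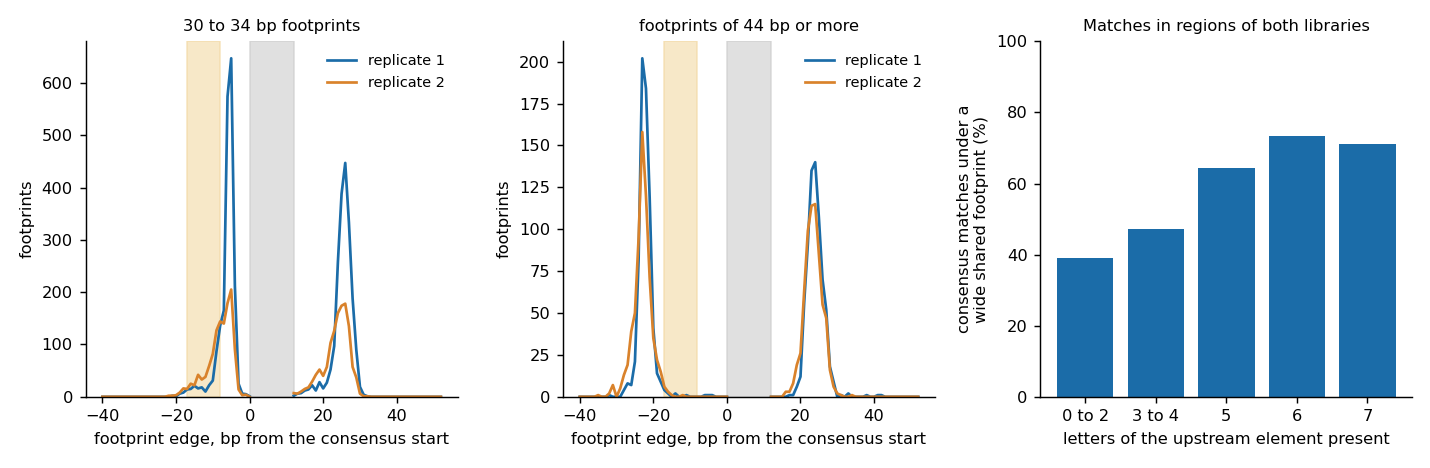
Left and middle, distance of both footprint edges from the start of the CTCF consensus, on the strand of the consensus, for members of 30 to 34 bp and of 44 bp or more in each library; grey marks the consensus and yellow the upstream element. Right, share of consensus matches in regions called in both libraries that lay under a wide shared footprint, by how many of the element's 7 fixed letters were present; it stood at 71.1% with all 7 and 38.95% with 0 to 2.

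The longer members differed in sequence as well. At 44 to 49 bp, single letters stood out from 17 to 9 bp before the consensus, spelling TGCANTNCC, which resembles the known upstream element of CTCF sites. The letters were read off these members, so their share there is a description. At least 5 of its 7 fixed letters were present in 52.9% of members of 44 to 49 bp and in 7.62% of those of 30 to 34 bp. The same letters read 20 bp further out were present in 1.61% and 1.70%. Grouped by the upstream edge, the element was present in 5.16% of members with an edge at 4 to 9 bp, 15.7% at 10 to 17 bp and 52.7% at 18 bp or more. Per library, members of 44 to 49 bp held it in 64.4% in replicate 1 and 50.3% in replicate 2, and members of 30 to 34 bp in 9.25% and 9.41%.

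The edges repeated between libraries more often than not. Of 2410 consensus matches under a wide interval in both libraries, the upstream edge agreed within 2 bp in 61.5% and the downstream edge in 70.6%. The upstream edge was short (at most 9 bp) in both for 743 and long (at least 18 bp) in both for 862. For 201 it was short in 1 and long in the other, and 178 of these were long in replicate 2.

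Not every consensus match was covered. Of 9599 matches in regions called in both libraries, 46.9% lay under a wide shared footprint, 36.3% under a shared narrow one, 8.16% under a footprint of 1 library and 8.59% under none. The wide share was 38.95% with 0 to 2 letters of the upstream element, 47.3% with 3 or 4, 64.3% with 5, 73.3% with 6 and 71.1% with 7. The letters were read off wide members, so this order and the one within ranges of region value are in part set by that choice and are descriptions. The wide share also rose with region value, and which of the 2 it followed more closely was not tested. It was 11.8%, 38.5%, 63.0% and 74.5% in 4 groups of equal size by rising mean region value. Within these groups, matches with at least 5 letters were under a wide footprint in 25.3%, 67.8%, 85.3% and 94.3%, against 8.68%, 32.5%, 57.9% and 69.8% of those with fewer.

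Members without the CTCF consensus held motifs of promoter factors in the following shares, and background shares are given below for all members. SP/KLF (GGGCGG), the GC box, was in 22.4% of them, the CRE core (TGACG) in 9.91%, NFY (CCAAT) in 8.91%, NRF1 in 3.97%, EGR (GCGNGGGCG) in 2.89%, the full CRE (TGACGTCA) in 2.76% and ETS (CCGGAAG) in 2.26%. The SP/KLF and EGR motifs share letters, and 113 members held both. Every CRE holds the CRE core. None of the 30 motifs was found in 2600 members, or 19.4%, and 53.7% of these were at promoters.

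Over all members, NRF1 and the CRE had higher shares than windows on narrow footprints, while SP/KLF, EGR and ETS had lower ones. The lower shares include the CTCF members (up to 1 mismatch), 59.7% of all. These held SP/KLF in 5.17%, EGR in 0.525% and ETS in 0.475%. Members without CTCF held them in 22.4%, 2.89% and 2.26%, which is higher than in the windows on narrow footprints. Those windows were not split by CTCF or by place. Promoters held 66.6% of members without CTCF and 51.8% of shared narrow footprints, and the part of this in the motif shares was not tested. NRF1, which drives nuclear genes of mitochondrial function, was in 227 members or 1.69%, against 0.894% of windows on narrow footprints and 0.321% of windows beside members. The libraries differed: NRF1 was in 1.09% of the wide shared footprints of replicate 1 and 1.93% of those of replicate 2. The CRE, bound by CREB, was in 160 members or 1.19%, against 0.576% and 0.239%, and in 1.06% of the wide shared footprints of replicate 1 and 1.24% of those of replicate 2. The CRE core was in 5.43%, against 4.10% and 3.02%. SP/KLF was in 12.1%, against 15.3% on narrow footprints and 7.20% beside members, and EGR in 1.48% against 1.88% and 0.560%. ETS stood at 1.19% against 1.60% and 1.21%, and NFY at 5.28% against 5.14% and 5.20%. AP-1 (TGANTCA) was in 41 members or 0.306%, against 0.978% and 0.635%. YY1 (AANATGGC) and neuronal bHLH (CAGATG) motifs can lie inside a CTCF consensus, and 155 of 214 and 488 of 609 members with them were CTCF members.

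The motifs were shorter than the protected stretch by choice, because members were at least 30 bp wide. With 1 match, the edge distances and the motif add up to the width, so the medians below are descriptions. In members without the CTCF consensus and with 1 NRF1 match, the nearer edge was a median of 7 bp and the farther 17 bp from the 10 bp motif. For the CRE, the medians were 8 and 19 bp, for NFY 9 and 24 bp and for SP/KLF 7 and 22 bp. At least 2 SP/KLF matches were held by 273 of 1209 such members, or 22.6%. NFI matches, at 15 bp the longest of these, had edges at 7 and 10 bp, and 34.4% of their 61 members were at promoters.

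The members below were chosen as the holders of each motif with the highest region values, so holding it was set by the choice. The member at -54 bp from a TSS of Snrnp70, which encodes a protein of a spliceosome particle, held an NRF1 match and was 31 and 35 bp wide in a region of 8.88 and 11.9. Another NRF1 member lay at 12 bp, at chr7:45395711-45395748, and was 36 bp wide in both libraries. The strongest CRE member was at 54 bp from a TSS of Pef1, at chr4:130107590-130107630, 37 and 41 bp wide with region values of 8.87 and 10.6. REST, which represses neuronal genes outside neurons, had 3 exact matches in members, and the strongest 2 lay in 1 intron of Xkr6, at chr14:63681673-63681708 and chr14:63681741-63681777, 30 and 35 bp and 33 and 36 bp wide in replicates 1 and 2. Both had region values of 2.35 and 1.95, close to the medians over all members of 1.96 and 1.88. A member at -95 bp from a TSS of Junb, an immediate early gene, held an SRF match together with a CRE core. It was 38 bp wide in replicate 1 and split into pieces of 8 and 9 bp in replicate 2, with region values of 3.64 and 3.78.

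At promoters, most members lay upstream of the TSS: 77.6% did, against 66.0% of shared narrow footprints. Of 3596 promoter members without the CTCF consensus, 51.6% had their centre in the 100 bp before a TSS and 15.8% in the 100 bp after it, with a median of -43 bp. Shared narrow footprints stood at 38.6% and 21.2%, with a median of -29 bp. The 1285 promoter members with the consensus at up to 1 mismatch stood at 38.4% and 7.00%, with a median of -59 bp. Among members without CTCF, those with NFY had a median of -62 bp, SP/KLF -49 bp, NRF1 -29 bp, the CRE -26 bp and ETS -21.5 bp.

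**Figure D4:**
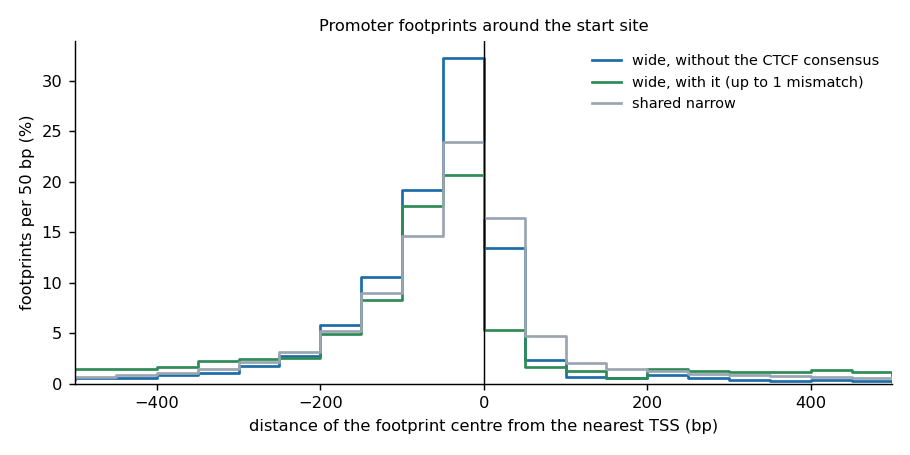
Distance of promoter footprint centres from the nearest TSS of a protein-coding gene in bins of 50 bp, negative values upstream, each set as a share of its own promoter footprints. Wide members without the CTCF consensus are highest just upstream of the start, with 51.6% in the 100 bp before it.

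The strongest promoter members led in 2 settings. At Gm10718 and Gm10717 on chromosome 9, 3 members shared a region of 21.1 in replicate 1 and 5.20 in replicate 2, and their central 36 bp occur 14, 43 and 48 times in the genome, so they cannot be assigned to 1 place. In unique sequence, Dynlt1b, a dynein light chain gene, had 2 members, at -26 and 41 bp from a TSS, in a region of 9.67 and 12.8. Bahcc1 had 3, at -240, -161 and -87 bp, in a region of 9.08 and 12.96. Their widths were 34 and 36 bp, 30 and 30 bp, and 39 bp in replicate 1 against pieces of 19 and 18 bp in replicate 2. Acin1, a splicing-associated protein gene, had 2, at -20 and -134 bp, with region values of 9.98 and 10.8.

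A member lay within 1 kb of a TSS of 4351 of 21938 protein-coding genes, or 19.8%, and of 32.3% of those with a promoter region called in both libraries. Of these, 3324 genes had 1 member, 818 had 2, 171 had 3, 29 had 4 and 9 had 5 or more. Gys1, the muscle-type glycogen synthase gene, had the most, with 7, of which 5 also counted for its neighbour Ruvbl2. Ell, an elongation factor gene, had 6. Hexim2, Tmpo and Idh1 had 5 each, as did Alg5 and Exosc8, which share all 5. Rab11b, Rad23b and Cdkn2d had 4 each, as did Deaf1 and Tmem80, which share all 4. Gm10718 with 6 and Gm10717 with 4 lie in the repeated sequence of chromosome 9 described above.

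Counts of genes with a member in each list are to be read against 19.8% of all protein-coding genes and 32.3% of those with an open promoter. Among mitochondrial ribosomal proteins 34 of 78 had one, among respiratory chain genes 39 of 88, among proteasome genes 14 of 39 and among cytosolic ribosomal proteins 27 of 80. Mrpl17 had 3, the strongest with an NRF1 match and 25 bp wide in replicate 1 and 55 bp in replicate 2. The strongest members of Mrpl45 and Ndufa13 also held NRF1 matches, the one of Ndufa13 lying nearest a TSS of Yjefn3, at -625 bp. Those of Mrps18b, Mrpl34, Ndufaf8, Uqcrq and Ndufaf5 held none, and the NRF1 share over these lists was not counted. The proteasome gene Psmb2 had a member with a CRE, 32 bp wide in both libraries. Histone cluster genes had one in 15 of 64, with Hist1h4c, Hist1h4a, Hist1h4i and Hist1h4d strongest.

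Lists of regulatory genes are read against the same shares, 19.8% and 32.3%. Of 8 CTCF and cohesin genes, 6 had one. Stag1, a cohesin subunit gene, had a member at -27 bp, 46 bp wide in both libraries, with the CTCF consensus, and Smc3 one with the consensus at 1 mismatch. Circadian genes had one in 6 of 11, Nr1d1 and Per1 leading with region values of 5.88 and 9.05 and of 5.73 and 8.59. Both were wide in replicate 2 only, at 35 and 30 bp, against 22 and 13 bp in replicate 1. Immediate early genes, which respond to neuronal activity, all had an open promoter, and 6 of 18 had a member. That is 33.3%, near the 32.3% of genes with an open promoter. Jun had 3, Egr1 4, Arc 2 and Fosb 2, and their strongest members lay at -93, 108, -32 and -382 bp from a TSS.

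Genes of single cell types gave these counts. Pan-neuronal genes had one in 2 of 12 although all 12 had an open promoter, and excitatory genes in 1 of 10 with all 10 open. Within 500 bp of a TSS these counts were 1 and 0. Rbfox3, the gene of the NeuN protein, had a member at -720 bp, 48 and 42 bp wide, with the consensus at 1 mismatch. Elavl4, a neuronal RNA-binding protein gene, had one at -36 bp, 43 and 46 bp wide, with the exact CTCF consensus. Astrocyte genes had one in 3 of 8: Gfap and Slc1a2 with the CTCF consensus and Sox9 without. Forebrain factors had one in 2 of 10, Tle4 and Pax6. Inhibitory (0 of 11), oligodendrocyte (0 of 9), microglia (0 of 9) and endothelial genes (0 of 6) had none. Of these 4 lists, 7, 5, 3 and 2 genes had a promoter region in both libraries.

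Genes of chromatin silencing and of gene clusters were counted too. Polycomb genes had one in 1 of 9, Cbx2. Imprinted genes had one in 3 of 15, Kcnq1ot1, Meg3 and Grb10, the member at Meg3 with the CTCF consensus and 23 bp wide in replicate 1 against 30 bp in replicate 2. Clustered protocadherins, whose promoters hold CTCF sites, had one in 1 of 56, Pcdhac1, with 7 of the 56 promoters open in both libraries. Hox genes (0 of 39) and olfactory receptors (0 of 1092) had none, with 1 and 12 of their promoters open in both libraries.

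The widest members were of mixed kinds, and some were repeats. The widest, 99 bp in replicate 1 and 4 pieces in replicate 2, was again in the repeated sequence of chromosome 9, with 73 copies. Other multi-copy members among the widest included chr6:47757987-47758065 (12 copies) and a short tandem repeat at chr4:67208571-67208643 (104 copies). In unique sequence, the widest was at -70 bp from a TSS of Ccdc66, 63 and 72 bp wide in a region of 7.97 and 7.27. It held 2 NFY motifs, 1 on each strand, shown in capitals on the plus strand. The next, at -6 bp from a TSS of Zmynd8, a chromatin reader gene, held NFY too and was 56 and 69 bp wide.
Ccdc66 promoter, chr14:27508494-27508565 (plus strand): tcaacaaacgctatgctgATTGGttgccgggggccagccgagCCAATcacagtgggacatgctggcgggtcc

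The central 36 bp of each of a further 6 of the widest members occurred once: chr17:23550323-23550389 with an AP-1 match, an intron of Col18a1 with a CTCF consensus at 1 mismatch, chr17:70963695-70963760 (66 bp wide in both libraries), chr2:122375564-122375629, and members at -477 bp from Leprot and -64 bp from Parp3. These counts cover exact matches on 21 chromosomes, so inexact copies and sequence outside them were not counted, and reads may belong to such copies. The member at Leprot was in a called region of replicate 1 only. Over all members, the central 36 bp of 263, or 1.96%, occurred more than once in the genome, and of 77 at least 10 times.

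Genes for tRNAs accounted for many of the widest members. They were looked at after a run of letters of the tRNA gene's internal B box (GGTTCGA) was found to recur in members without a searched motif, so these values are a description. Of 403 nuclear tRNA genes in the RefSeq annotation, 224 lay in regions called in both libraries, and 135 of these, or 60.3%, held a member. On tRNA genes lay 181 members, or 1.35% of all, against 0.210% of shared narrow footprints. By width, they were 0.585% of members of 30 to 34 bp, 6.12% of those of 50 to 59 bp and 40.5% of the 42 members of 60 bp or more.

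The members took 2 places along the gene. Across the 5′ end lay 59, reaching from a median of -48 bp to 7 bp from the first base, with a median width of 54 bp; none held the B box letters. In the 3′ part lay 122, from a median of 39 to 77 bp after the start, with a median width of 38 bp, and 82.8% of them held the B box. The members were grouped by position and the B box lies inside the gene, so these shares are in part set by the grouping. The share of all tRNA genes with these letters was not counted. Both places were covered at 44 genes, the 5′ place alone at 15 and the 3′ place alone at 78. Wide intervals at the 5′ place numbered 50 in replicate 1 and 25 in replicate 2, and in the 3′ part 104 and 78. In replicate 1 alone the 5′ place ran from -48 to 7 and in replicate 2 from -42 to 7. The 3′ place ran from 39 to 76 in replicate 1 and from 40 to 77 in replicate 2. Wide intervals were on 124 tRNA genes in replicate 1 and 86 in replicate 2. Of the members at the 5′ place 59.3%, and of those in the 3′ part 49.2%, were wide in both.

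**Figure D5:**
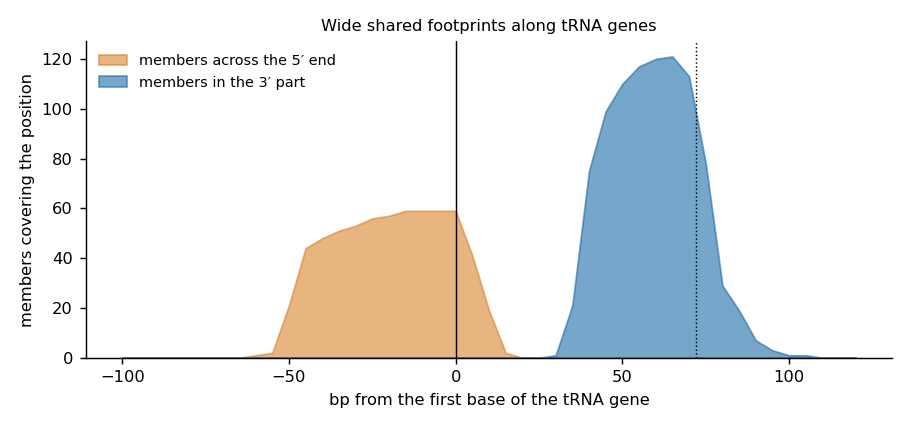
Number of wide shared footprints covering each position along tRNA genes, on the strand of the gene, with the first base at 0 (solid line) and the median gene end at 72 bp (dotted line). The 59 members across the 5′ end and the 122 in the 3′ part form 2 separate humps.

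The pairs below show both places at 3 of the tRNA genes with the highest region values, on the strand of the gene, with the B box in capitals.
tRNA-Arg n-TRtcg5, 5′ place, chr7:79466371-79466431 (plus strand): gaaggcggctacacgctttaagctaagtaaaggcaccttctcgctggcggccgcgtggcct
tRNA-Arg n-TRtcg5, 3′ place, chr7:79466449-79466496 (plus strand): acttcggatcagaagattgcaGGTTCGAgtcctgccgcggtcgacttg
tRNA-Thr n-TTagt9, 5′ place, chr7:35234835-35234895 (minus strand): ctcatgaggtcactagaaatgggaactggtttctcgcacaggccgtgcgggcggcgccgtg
tRNA-Thr n-TTagt9, 3′ place, chr7:35234768-35234805 (minus strand): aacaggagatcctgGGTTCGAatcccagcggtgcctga
tRNA-Gly n-TGccc7, 5′ place, chr17:25875039-25875099 (plus strand): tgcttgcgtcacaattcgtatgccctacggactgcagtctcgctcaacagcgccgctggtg
tRNA-Gly n-TGccc7, 3′ place, chr17:25875127-25875163 (plus strand): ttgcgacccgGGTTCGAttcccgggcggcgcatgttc

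The member at the 5′ place of the tRNA-Arg gene was 60 and 61 bp wide, and the one in its 3′ part 39 and 48 bp, in a region of 7.58 and 7.39. At the tRNA-Thr gene the widths were 57 and 61 bp at the 5′ place and 36 and 35 bp in the 3′ part, and the 3′ sequence occurs 2 times in the genome. At the tRNA-Gly gene they were 58 and 61 bp, and 23 bp in replicate 1 against 37 bp in replicate 2.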

How the data were processed

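DNase-seq of frontal cortex was analysed in 2 libraries of 1 group, taken from the labels. Each library's own text files, as deposited, state that its regions, footprints and cut-rate table were derived on mm10 from that library alone, so libraries were not pooled. The sources used here do not name the aligner or callers, nor the depth. The authors' deposited signal per region is normalised for read depth on an unstated scale. The deposited footprint lists carry a constant score of 0.01, read as the threshold of the call. The deposited table of false discovery rates (a q-value per position) lists values of at most 0.05, and it listed all bases of 99.9% of members in replicate 1 and 99.8% in replicate 2. The members, motifs and gene lists were chosen with earlier results of these data known.

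Footprints were intersected and merged, and sequences were read from GRCm38.p6 with Python 3.11.15, numpy 2.4.6, pandas 2.3.3 and scipy 1.17.1. The 30 motifs were searched on both strands, and TSS came from GENCODE vM21. Copies are exact matches of the central 36 bp on either strand of 21 chromosomes, and unique means 1 such match. Inexact copies and sequence outside these chromosomes were not counted. Region values are those of the longer of 2 lists per library. No test was run: values are counts, shares and means with SD over libraries. Scans and overlaps were tested on simulated data. Members named are the 12 widest, the 10 strongest at promoters, the 10 strongest distal CTCF members and the strongest 2 per motif, of which some are described; a few items under these rules are not reported here. Genes named are the 15 with most members and up to 4 per list of 21 lists. The CTCF example sequences and the tRNA genes were chosen after values were seen. Sequences on chromosome 18 or over annotated UTRs are not shown. Alternatives covered the width minimum, the sharing rule, each library, unique sequence, region list, promoter distance and motif stringency.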

Additional observations from a re-analysis of the deposited data

How the results depend on the processing

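The number of members, their share wide in both libraries, at promoters, in regions of both and with the CTCF consensus were recomputed under each alternative. With a minimum of 25 bp there were 22727 members, of which 49.9% were wide in both, 95.3% in regions of both, 41.1% at promoters and 26.9% with the consensus. With 35 bp there were 7112, with 39.96% wide in both and 97.3% in regions of both. Requiring the other footprint to be wide left 5977 members, 100% wide in both by construction, with 98.1% in regions of both, 30.1% at promoters and 40.6% with the consensus. An overlap of at least 50% of the interval gave 47.3% wide in both. The shorter region list gave 90.0% in regions of both, and promoters of 2.5 kb a share of 43.002%. The consensus was in 59.7% with 1 mismatch, 18.8% with a stricter form and, chosen after seeing the data, 27.5% of members narrow in the other library. From 1 library at a time, the count was 9490 to 9885, with 60.5 to 63.0% wide in both, 96.9 to 97.3% in regions of both, 31.6 to 37.5% at promoters and 33.6 to 37.3% with the consensus. These are counts and shares of members alone, so they cannot show whether a difference from narrow footprints would reverse. Letting a motif reach 10 bp beyond the ends gave NFY 9.06%, ETS 2.05% and YY1 2.14% of members. The windows on narrow footprints, with ETS in 1.60%, were not extended in this way. Whether the lower ETS share of members holds under this setting was therefore not tested. With at least 6 letters of the upstream element, the shares were 29.05% at 44 to 49 bp and 2.96% at 30 to 34 bp. With promoters of 500 bp, 1 pan-neuronal gene and 0 excitatory genes had a member. No paired analysis was possible because there is only 1 group. Depth is not known, so no limit on undetected footprints can be given.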

Other observations

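The orientation of neighbouring members with the exact CTCF consensus was counted by distance. Between neighbours 1 to 10 kb apart, the consensus pointed away from each other in 36.8% and toward each other in 9.09% of 209 pairs. At 10 to 100 kb, 32.1% pointed away and 22.2% toward each other (1142 pairs). At 100 kb or more, 23.2% pointed away and 29.1% toward each other (3051 pairs), with the remaining pairs on 1 strand. Under 1 kb, 31 of 43 pairs were on the same strand. These are descriptions with no test.

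Members without a searched motif shared some letters. GCCTGCGC, or its reverse complement, was in 134 of the 2600, or 5.15%. Over all members, GCGCAGGC on either strand was in 1.82%, against 1.32% of windows on narrow footprints. The NRF1 motif with 1 mismatch was in 4.65% of members, against 3.46% of those windows, and in 10.2% of members without the CTCF consensus.

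Members were mostly far apart, with a median gap of 61210 bp, but 951 gaps, or 7.11%, were under 50 bp. On genes of other RNAs, 3 members, or 0.0224%, lay on snRNA genes, against 0.0205% of shared narrow footprints. On snoRNA genes lay 2, or 0.0149% against 0.00819%, on miRNA genes 10, or 0.0746% against 0.0819%, and on lincRNA genes 522, or 3.90% against 3.70%.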
